A study of Mus musculus with 4 samples.

Results

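The genes of glycolysis and of the response to low oxygen were examined in mouse hybridoma 36-65, a B cell fused to a myeloma cell so that it grows without limit while secreting 1 antibody, through 4 of its subclones. The members were the 31 named genes of this set, each taken with every probe set that carried its symbol, and Pkm was listed under its current symbol. A probe set is a group of short array probes that report on 1 transcript. Of the 31 genes, 29 had a probe set naming them alone, among 18194 genes on the array. Of these, 28 were tested on 61 probe sets, and Gapdh was present only as 3 control probe sets. Levels of Gpi1 and Eno1 were not analysed here, and only their promoters were read.

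Total RNA was measured in 4 subclones, each on 1 Affymetrix array. Subclones L25 and L27 switched their antibody isotype at low frequency in culture, and subclones H23 and H27 did so spontaneously at high frequency. All 4 descended from the same hybridoma and grew in the same medium with 10% fetal calf serum, with no treatment given in the labels. Each class rests on 2 subclones of 1 cell line, and nothing in the labels says whether the subclones of a class arose separately. The p-values here reflect no more than the scatter among 4 arrays.

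Glycolysis splits glucose into pyruvate in the cytosol and gives ATP without oxygen. Lactate dehydrogenase then converts pyruvate to lactate, or pyruvate enters mitochondria through pyruvate dehydrogenase. The transcription factor HIF-1 ties this route to oxygen: prolyl hydroxylases mark its alpha subunit for destruction when oxygen is present, and when oxygen falls the subunit accumulates and raises transcription of glucose carriers, glycolytic enzymes and other hypoxia-inducible genes. HIF-1 binds DNA at a short element with the core ACGTG or GCGTG. Plasma cells and hybridomas secrete antibody in bulk and are known to take up much glucose.

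The values are RMA intensities (background-corrected, normalized and summarized for each probe set), given here as log2. The median probe set read between 5.25 and 5.30 on the 4 arrays. Of 14 plasma cell markers measured, 13 were above the array median on every array, and Cd79a, part of the B cell receptor, was below it on every array. The median level of these markers was 11.77 to 11.78 in low and 11.90 to 11.95 in high switching subclones. Above the median on every array were 6 of 11 T cell, 4 of 11 myeloid, 1 of 5 erythroid and 3 of 9 fibroblast markers. The medians of the T cell, myeloid, erythroid and fibroblast lists ranged from 4.25 to 6.02. Among plasma cell markers Xbp1, Tnfrsf17 and Edem1 passed as lower and Cd79b as higher in high switching subclones, Edem1 on its dimmer probe set only. These were 5 lower and 1 higher of 25 probe sets, against 2.1% and 1.5% of all probe sets. Of the markers of the other cell types, Itgam (-1.38) passed as lower and Lum (1.21) as higher; their part in the values below was not tested. The spiked hybridization controls read 11.57 on L25 and 11.49 on H27, against 10.99 on L27 and 11.08 on H23, a split that crosses the classes.

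The comparison asked which of these genes differed with switching frequency, taking high minus low with limma and Benjamini-Hochberg adjustment over all 45037 probe sets. None of the 61 member probe sets passed an adjusted p of 0.05, while 3.59% of all probe sets did (1.5% higher and 2.1% lower). At an unadjusted p under 0.05 limma gave 15 of 61 (24.6%), against a background of 18.6%, and 27 of 61 had groups that did not overlap, against 47.3% of all probe sets. The 28 genes, each by its brightest probe set, had a median log2 difference of -0.07, between -0.58 for Pdk1 and 0.87 for Eno2. The median was 0.01 over all 18193 genes and -0.05 over the 8222 with a mean of at least 7, a level that 26 members reached. By that probe set 0 of 28 genes passed (4.82% of all genes), 8 had an unadjusted p under 0.05 (22.9%), and 13 had groups that did not overlap (51.4%). Among genes with a mean of at least 10, 7 of 16 members did not overlap, against 66.4%. For 23 of the 28 genes the 95% interval lay inside a 2-fold difference either way. It reached past 2-fold for Aldoc, Bnip3, Egln3, Eno2 and Pdk1, and it lay inside a 1.5-fold difference for 14 of the 28. The missed threshold does not show that the classes were alike for any member.

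**Figure D1:**
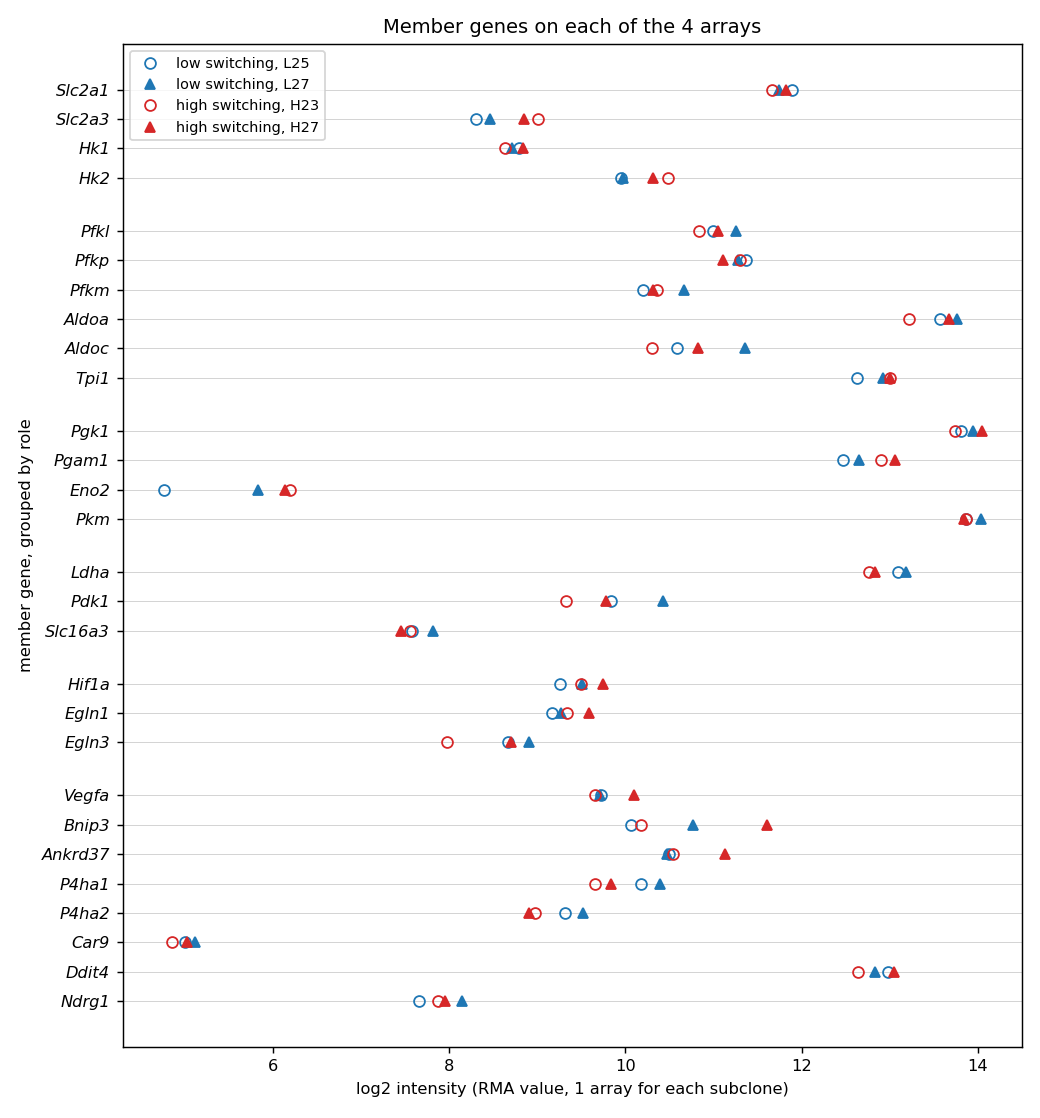
Log2 intensity (horizontal axis) of the brightest probe set of each of the 28 member genes (rows, grouped by role) on the 4 arrays, with low switching subclones in blue and high switching subclones in red. Slc2a3, Hk2 and Pgam1 have both red points to the right of both blue points, P4ha1 and P4ha2 have them to the left, and Bnip3 on H27 stands apart at 11.60.

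Among glucose carriers and hexokinases, Slc2a3 and Hk2 read higher in high switching subclones without overlap and neither passed. Slc2a3 encodes GLUT3, a carrier with high affinity for glucose. Its brightest probe set read 8.31 and 8.46 in L25 and L27 and 9.002 and 8.85 in H23 and H27, so both high switching arrays were above both low switching arrays. The log2 difference was 0.54 ± 0.12 (SE, n = 2 and 2; limma adjusted p = 0.0721), a 1.46-fold gap. All 4 Slc2a3 probe sets lay on the same side without overlap, by 0.46 to 0.70. This probe set did pass after removal of probe sets under a mean of 7 (adjusted p = 0.0452), after a further quantile normalization (0.0468) and with cyclic loess (0.0489). It did not pass in the other 10 of 13 alternatives, with adjusted p up to 0.299 when L25 was left out, and the difference was 0.28 with its neighbours' median subtracted. Slc2a1, which encodes GLUT1, the carrier of most proliferating cells, had differences of -0.10, -0.07 and -0.07 on its 3 probe sets.

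Hexokinase traps glucose in the cell as glucose 6-phosphate. Hk2, the inducible isoform, read 9.95 and 9.97 in low and 10.49 and 10.31 in high switching subclones, a difference of 0.44 ± 0.11 (limma adjusted p = 0.107). Its groups did not overlap, and the gap between classes was larger than that within either pair. Hk1, the constitutive isoform, differed by -0.01 ± 0.12 on its brightest probe set and by -0.09 on the other.

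The steps from hexose phosphate to triose phosphate showed mostly overlapping groups. Phosphofructokinase commits sugar to glycolysis, and its subunit genes Pfkl, Pfkp and Pfkm had differences of -0.19, -0.12 and -0.09 on their brightest probe sets, with overlap between the classes for all 3. A dimmer Pfkp probe set read 7.15 and 7.11 in low and 6.66 and 6.53 in high switching subclones. Its difference of -0.53 ± 0.11 had a limma adjusted p of 0.0613, which was 0.0469 with probe sets under a mean of 6 left out. It did not pass in the other 12 of 13 alternatives, and with its neighbours' median subtracted the difference was -0.15 (adjusted p = 0.479). The 2 brighter Pfkp probe sets gave -0.12 and -0.11, with overlap. Aldolase cleaves the hexose: the 5 Aldoa probe sets gave -0.04 to -0.24, and Aldoc, its brain-type isoform, read 10.59 and 11.36 in low and 10.30 and 10.82 in high switching subclones. Aldoc thus varied more within the low switching pair (0.77) than between the classes (-0.41 ± 0.28). Tpi1, which interconverts the triose phosphates, had all 3 probe sets higher in high switching subclones without overlap, by 0.21 to 0.24 (lowest limma adjusted p = 0.373).

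Among the steps from triose to pyruvate, Pgam1 and Eno2 had the larger differences. Pgam1, the phosphoglycerate mutase of most tissues, read 12.47 and 12.65 in low and 12.90 and 13.06 in high switching subclones (0.42 ± 0.12, limma adjusted p = 0.141), without overlap. Eno2, the neuronal enolase, read 4.76 and 5.82 against 6.19 and 6.13. Both high switching arrays were above both low switching arrays, but L25 and L27 were 1.07 apart, and L25 lay below the median probe set of its array. The Eno2 difference was 0.87 ± 0.32 (limma adjusted p = 0.223), 1.40 without L27 (adjusted p = 0.0265) and 0.34 without L25. Pgk1, which makes the first ATP of the pathway, differed by 0.01, 0.07 and 0.01 on its 3 probe sets, and Pkm, the pyruvate kinase of muscle and dividing cells, by -0.09 ± 0.11. The Gapdh control probe sets, which were not part of the test, were 0.12 to 0.16 higher in high switching subclones, without overlap. For the 3′ control these values were 14.13 and 14.22 in low and 14.37 and 14.28 in high switching subclones.

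All 3 genes at the fate of pyruvate read lower in high switching subclones without overlap on their brightest probe sets, and none passed. Of all genes, 24.9% read lower without overlap in this way. In the list of pyruvate entry and monocarboxylate carriers taken up below, 5 of 15 genes read higher without overlap and 4 lower. Ldha, lactate dehydrogenase A, read 13.09 and 13.18 in low and 12.77 and 12.83 in high switching subclones. Its difference of -0.34 ± 0.11 had a limma adjusted p of 0.165. Pdk1, the kinase that switches off pyruvate dehydrogenase, read 9.84 and 10.43 in low against 9.32 and 9.78 in high switching subclones (-0.58 ± 0.24, limma adjusted p = 0.268). The classes were close to touching, with H27 just under L25. Its other expressed probe sets gave -0.46 and -0.51, while the fourth, dimmer than the median on all 4 arrays, gave 0.23. Slc16a3, the lactate exporter MCT4, differed by -0.19 ± 0.13.

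Of the oxygen-sensing genes, Egln1 alone had groups that did not overlap on the brightest probe set. Hif1a, the regulated subunit of HIF-1, read 9.26 and 9.50 in low and 9.50 and 9.74 in high switching subclones on its brightest probe set (0.24 ± 0.14), with L27 and H23 level, and its 3 other probe sets also overlapped, the largest difference being -0.14. Egln1, the main prolyl hydroxylase PHD2, had differences of 0.24 and 0.11 on its 2 probe sets, both without overlap (lowest limma adjusted p = 0.399). Egln3, the hydroxylase PHD3 and itself inducible by HIF, read 8.67 and 8.90 in low and 7.97 and 8.70 in high switching subclones. The low reading was that of H23 alone: the Egln3 difference was -0.45 ± 0.24, -0.81 without H27 and -0.09 without H23.

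The 8 other hypoxia-inducible genes did not move as 1 group: 4 had differences above 0 and 4 below, with a median of -0.03. Among those without overlap, the largest gaps were in the collagen prolyl 4-hydroxylase alpha subunits P4ha1 and P4ha2, enzymes of the endoplasmic reticulum that hydroxylate collagen. P4ha1 read 9.68 and 9.89 in low and 9.08 and 9.18 in high switching subclones on the probe set with the lowest p of any member. Its difference of -0.65 ± 0.12 corresponds to a 1.57-fold lower level, and its limma adjusted p of 0.05002 lay just outside the threshold. It passed with an intensity trend and robust estimation (adjusted p = 0.0497), with probe sets under a mean of 6 (0.0387) or 7 (0.0328) left out, and with each array centred on its median (0.0445); over all 14 alternatives its adjusted p ranged from 0.0328 to 0.179. The brighter P4ha1 probe set gave -0.54 ± 0.13 (limma adjusted p = 0.0902). P4ha2 read 9.31 and 9.52 in low and 8.97 and 8.91 in high switching subclones (-0.48 ± 0.12, limma adjusted p = 0.101). All 3 probe sets of this pair of genes had groups that did not overlap.

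Bnip3, a mitochondrial protein of autophagy and cell death, behaved differently: it read 10.06 and 10.76 in L25 and L27 and 10.18 and 11.60 in H23 and H27. H27 was the highest, L27 was 0.70 above L25, and H23 lay inside the low switching range. The difference between classes was 0.48 ± 0.47 (limma adjusted p = 0.683), -0.23 without H27 and 1.19 without H23. Ankrd37, an ankyrin repeat gene known as a HIF target, also had its high value in H27 (11.13), with the other 3 arrays between 10.47 and 10.54. Vegfa, the angiogenic growth factor, read 10.09 in H27 and 9.66 to 9.73 elsewhere on its brighter probe set. On the other, H27 (9.58) lay inside the range of the remaining arrays, 9.30 to 9.60. Ddit4 (REDD1, a brake on mTOR signalling), Ndrg1 (a stress-inducible gene) and Car9 (carbonic anhydrase IX, dimmer than the median on all 4 arrays) differed by -0.06, 0.00 and -0.11. The 5 Ndrg1 probe sets ranged from -0.07 to 0.10.

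The promoters of some of the genes whose values stand out are shown because the element bound by HIF-1 is short enough to be read in them. They are the 250 bases before the RefSeq start in GRCm38.p6, 5′ to 3′ on the strand of the gene, and capitals mark ACGTG or GCGTG on either strand (CACGT and CACGC on the other). P4ha1 is at chr10:59323046-59323295 (+), P4ha2 at chr11:54100674-54100923 (+), Ldha at chr7:46845554-46845803 (+, the first of 2 starts), Hk2 at chr6:82774455-82774704 (-) and Bnip3 at chr7:138909507-138909756 (-).
P4ha1: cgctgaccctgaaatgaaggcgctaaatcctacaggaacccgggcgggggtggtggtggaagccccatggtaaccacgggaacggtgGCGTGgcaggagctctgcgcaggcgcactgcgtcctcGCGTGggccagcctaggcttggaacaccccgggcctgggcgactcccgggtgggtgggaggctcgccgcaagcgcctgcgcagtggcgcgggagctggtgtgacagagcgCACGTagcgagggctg
P4ha2: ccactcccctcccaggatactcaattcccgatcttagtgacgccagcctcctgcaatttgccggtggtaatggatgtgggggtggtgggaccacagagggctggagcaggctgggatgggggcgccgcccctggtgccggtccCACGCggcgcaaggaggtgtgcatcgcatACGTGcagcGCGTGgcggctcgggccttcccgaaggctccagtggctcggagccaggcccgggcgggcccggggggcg
Ldha: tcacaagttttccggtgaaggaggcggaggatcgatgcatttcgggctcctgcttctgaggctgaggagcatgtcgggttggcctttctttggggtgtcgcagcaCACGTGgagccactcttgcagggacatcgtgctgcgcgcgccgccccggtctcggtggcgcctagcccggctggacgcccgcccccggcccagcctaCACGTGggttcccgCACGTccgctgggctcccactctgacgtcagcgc
Hk2: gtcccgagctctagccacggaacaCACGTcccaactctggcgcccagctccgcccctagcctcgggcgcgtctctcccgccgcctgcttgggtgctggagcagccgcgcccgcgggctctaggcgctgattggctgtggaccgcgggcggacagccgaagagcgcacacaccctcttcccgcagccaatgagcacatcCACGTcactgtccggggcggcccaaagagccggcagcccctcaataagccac
Bnip3: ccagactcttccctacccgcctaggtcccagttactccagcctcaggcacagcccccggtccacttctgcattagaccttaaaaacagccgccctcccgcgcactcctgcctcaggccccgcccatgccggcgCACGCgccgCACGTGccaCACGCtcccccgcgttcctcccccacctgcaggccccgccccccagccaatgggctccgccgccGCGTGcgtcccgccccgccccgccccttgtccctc

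P4ha1 and P4ha2 each held 1 ACGTG and 2 GCGTG matches, Ldha 5 and 0, Hk2 2 and 0, and Bnip3 2 and 3. A palindromic CACGTG, the E-box read by other factors such as Myc, counts as 2 ACGTG matches, 1 on each strand, and occurred 2 times in Ldha and 1 time in Bnip3. Of the members' 42 windows, 33 (78.6%) held either core, against 38.6% of all 32851 windows of the same length. Of the 29 members with an entry, 26 (89.7%) held either core in at least 1 window, against 41.5% of all 27025 genes in the table, and 19 (65.5%) held ACGTG, against 18.5%. Gpi1, Tpi1 and Eno2 were the 3 with neither core in this window. Among the promoters shown, a core was held by P4ha1, P4ha2 and Ldha, which read lower in high switching subclones. It was also held by Hk2, which read higher. Tpi1 and Eno2, which read higher without overlap too, held neither core, and Slc2a3 had no entry. A match is a string of letters and was not tested as a binding site.

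The members' small differences were set beside those of the genes next to them on the chromosome, taking up to 20 genes with a mean of at least 7 on each side. The median difference of the neighbours had the same sign as the member for 25 of 28 genes, and for all 13 whose groups did not overlap. Over the 8205 genes with a mean of at least 7, the same sign was found for 72.9%, and for 79.5% of those without overlap, so the same held for most genes at that level. Slc2a3, Hk2, Tpi1 and Eno2 all lie on chromosome 6, and their neighbours had medians of 0.26, 0.23, 0.22 and 0.22. Slc2a3 and Tpi1 were numbers 306 and 317 among the chromosome 6 genes of that level. Their neighbours were thus partly the same genes, and their medians are not separate observations. Ldha and Aldoa lie on chromosome 7, with neighbour medians of -0.29 and -0.32, and Pdk1 on chromosome 2, with -0.26. Hif1a and Egln1 had neighbour medians of 0.28 and 0.26, close to their own 0.24 and 0.24. With this median subtracted, the median absolute difference of the 28 members went from 0.23 to 0.13. Of the chromosome 6 genes, Tpi1 was then at 0.01, Hk2 at 0.21, Slc2a3 at 0.28 and Eno2 at 0.64. From Vamp1 (number 329, -0.94) and Tapbpl (number 330, -1.60) onward, most chromosome 6 genes of that level read lower in high switching subclones. The neighbours of Tpi1 lay on both sides of this turn, so their median mixed unlike stretches. Egln1 went to -0.02, Ldha to -0.05 and Ankrd37 to 0.05. P4ha1 (-0.41) and P4ha2 (-0.46) kept most of their difference, and Bnip3, against a neighbour median of -0.31, went to 0.79. Copy number was not measured, and its part in these values was not tested.

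**Figure D2:**
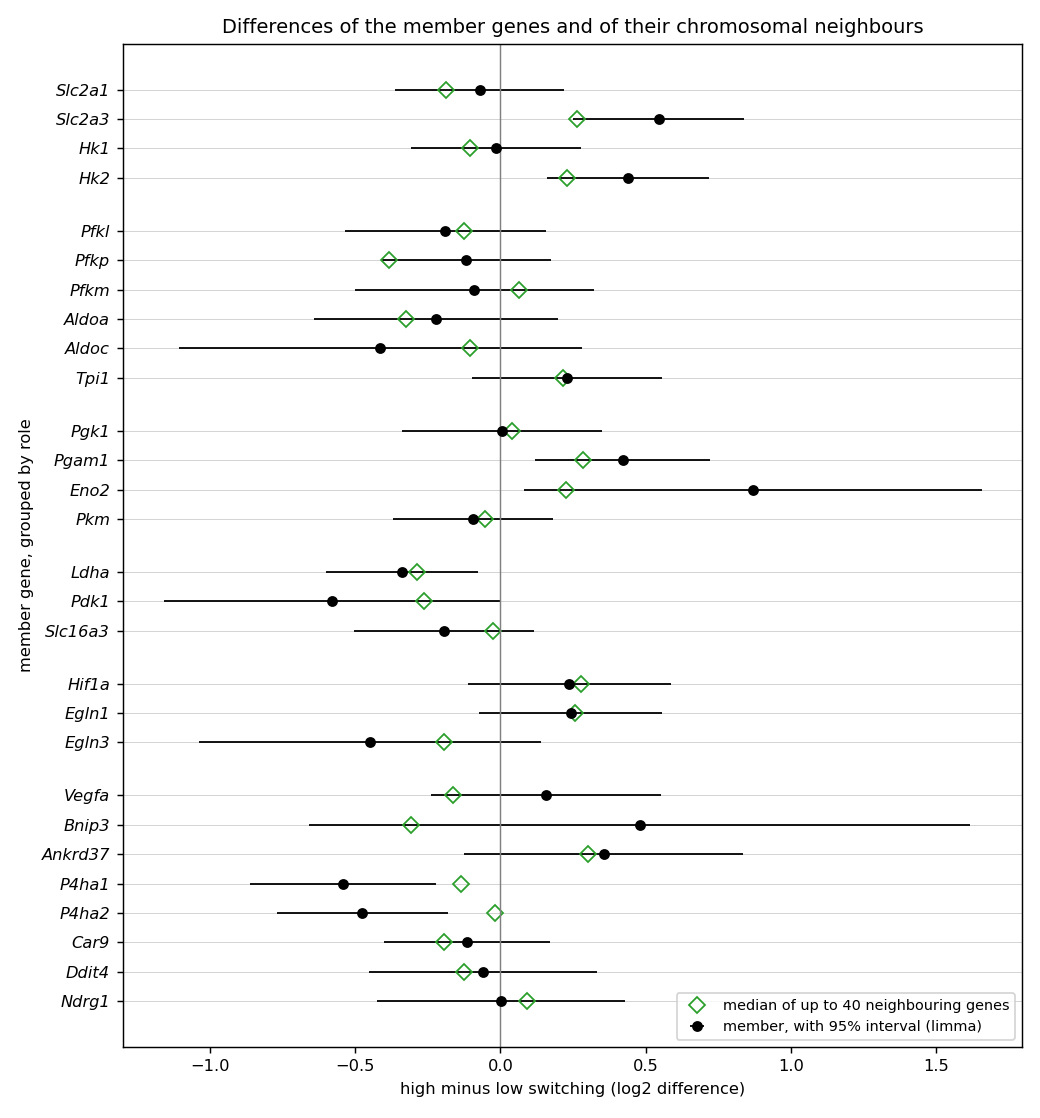
Log2 difference between high and low switching subclones (horizontal axis) for the brightest probe set of each member gene (black points, with the 95% interval from limma) and the median difference of up to 20 neighbouring genes on each side (green diamonds). The diamonds of Tpi1, Ldha and Egln1 lie close to the gene's own point, while those of P4ha1 and P4ha2 lie outside the gene's interval.

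**Figure D3:**
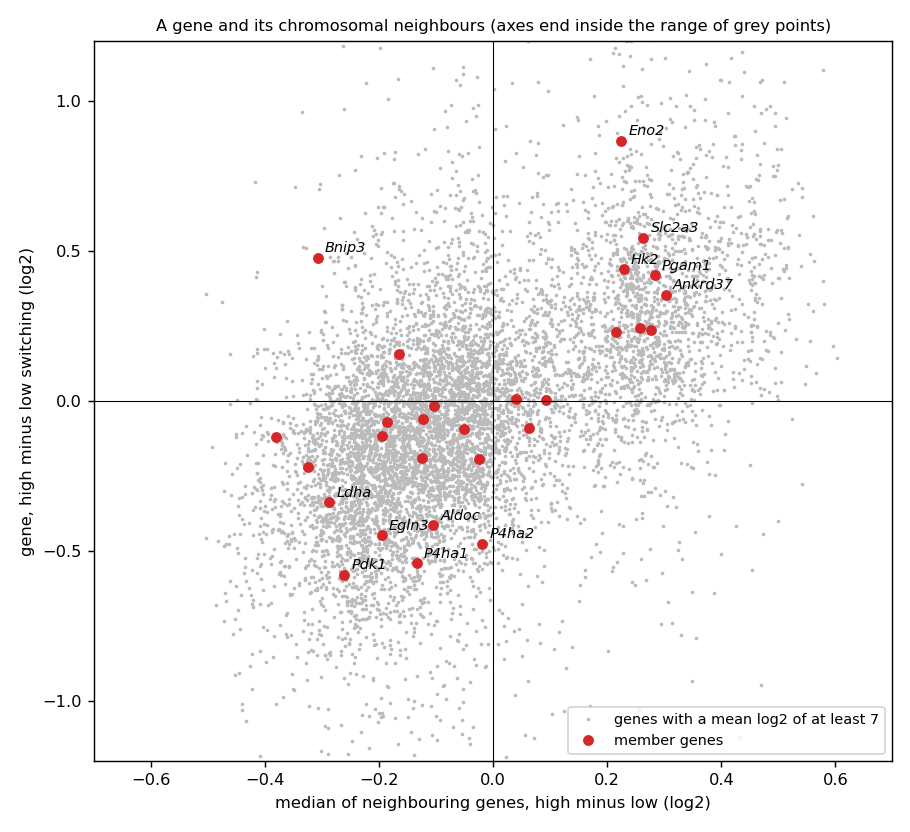
Log2 difference of a gene (vertical axis) against the median of its chromosomal neighbours (horizontal axis), for genes with a mean log2 of at least 7 (grey) and the 28 members (red), with the outermost grey points beyond the axes. Of the members, 25 lie where both values have the same sign, and the other 3 are Bnip3, Vegfa and Pfkm.

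A pattern among the members also ran inside the classes. L27 read above L25 for 22 of 28 members and H27 above H23 for 20, and both held for 15 members (53.6%), against 22.7% of all genes. L27 below L25 together with H27 below H23 was found for 1 member, Pfkp (3.57%, against 26.1%). The mixed orders held for 7 (25%, against 26.5%) and 5 members (17.9%, against 24.2%). Among genes with a mean of at least 10, both held for 9 of 16 members (56.2%), against 23.7%. The labels give subclones of different classes no link, so the pairing of L27 with H27 is only the order in which they are listed. This count was made after the values were seen, and members of a pathway are not independent of each other.

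The 15 genes were Aldoa, Aldoc, Bnip3, Car9, Egln1, Egln3, Hif1a, Ldha, Ndrg1, P4ha1, Pdk1, Pfkl, Pgam1, Pgk1 and Tpi1. Bnip3 was 2.69-fold higher in H27 than in H23 and 1.63-fold higher in L27 than in L25, and its gap in the high switching pair ranked 10 among the 8205 genes with a mean of at least 7. Aldoc was 1.43-fold and 1.70-fold higher in H27 and L27, and Pdk1 stood 0.46 and 0.59 higher on the log2 scale. Egln3 was 1.65-fold higher in H27 than in H23. A gap of at least 1.5-fold in the low switching pair was found for 4 of 28 members (14.3%, against 2.25%) and in the high switching pair for 3 (10.7%, against 2.52%), the latter being Ankrd37, Bnip3 and Egln3. Eno2 had its gap in the low switching pair only (2.09-fold), with H27 at -0.05 relative to H23. The hybridization controls ran the other way in the low switching pair, where L27 was the dimmer array, and the same way in the high switching pair. With 1 array for each subclone, a gap between 2 subclones has no replicate and was not tested.

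**Figure D4:**
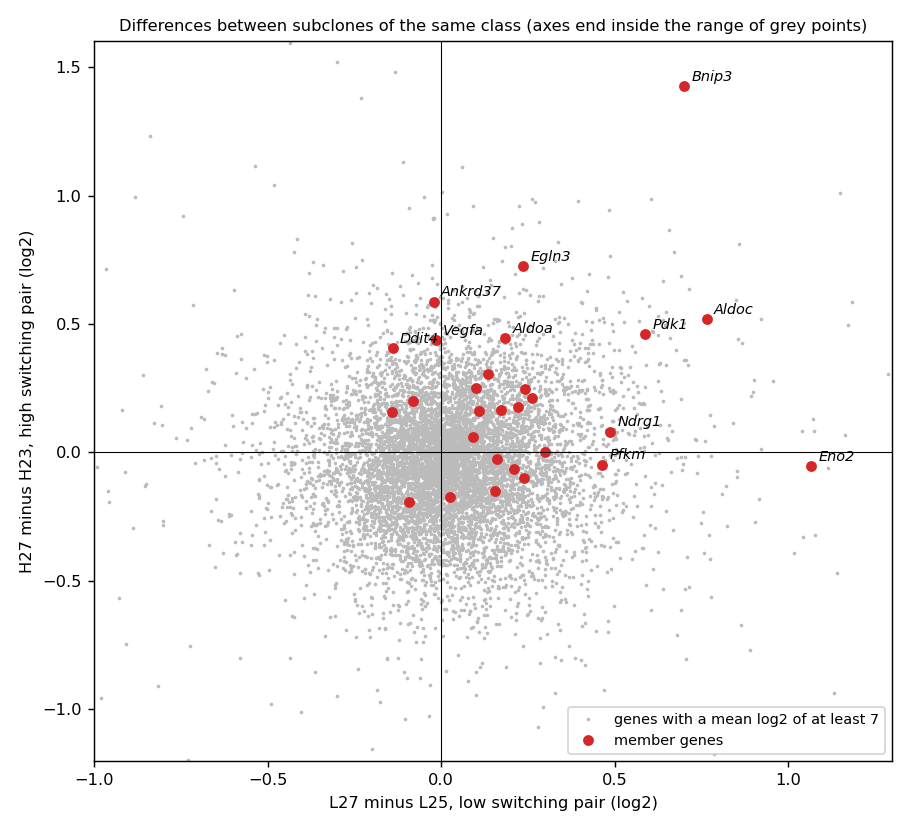
Log2 difference of H27 minus H23 (vertical axis) against L27 minus L25 (horizontal axis), for genes with a mean log2 of at least 7 (grey) and the 28 members (red), with the outermost grey points beyond the axes. Of the members, 15 lie where both values are above 0, with Bnip3, Aldoc and Pdk1 farthest out along both axes.

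Other genes of these pathways were taken from 6 lists with 103 genes, of which 93 were measured on 201 probe sets. Here limma called 2 probe sets higher and 11 lower (adjusted p under 0.05), 13 of 201 against the background of 3.59%. Below, a gene rose or fell if any of its probe sets was called, as 457 and 664 of all 18193 genes did. Among isozymes and regulators of glycolysis, 1 of 20 genes rose and 3 fell. The 3 that fell encode forms best known from muscle. Fbp2, muscle fructose bisphosphatase, which runs the phosphofructokinase step backwards, read 8.32 and 8.49 in low and 5.33 and 5.83 in high switching subclones (-2.82 ± 0.18, limma adjusted p = 0.00225), a 7.08-fold difference that held when any array was left out. Pgam2, the muscle phosphoglycerate mutase, read 10.93 and 9.20 in low and 5.89 and 6.34 in high switching subclones (-3.95 ± 0.52). Its call ended without H23 (adjusted p = 0.0735) or H27 (0.0583). Eno3, the muscle enolase, read 11.14 and 10.97 against 10.05 and 10.08 (-0.99 ± 0.11), and its call ended without L25 (adjusted p = 0.0846), H23 (0.0593) or H27 (0.0539).

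Of the members at these 2 steps, Pgam1 and Eno2 had differences of the opposite sign, 0.42 and 0.87, neither past the threshold. Eno2 was dim, with a mean of 5.73, and Eno1, the other enolase among the members, was not measured here. Whether one isoform stood in for another was not tested. Slc2a6, a glucose carrier of leukocytes, was the gene of this list that rose, from 5.83 and 5.51 to 6.48 and 6.61 (0.88 ± 0.14). Its call did not hold in any of the 4 fits that left out an array (adjusted p from 0.0729 to 0.117).

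At the entry of pyruvate to mitochondria, Pdha1, the catalytic subunit of pyruvate dehydrogenase, fell on both of its probe sets (-0.94 ± 0.12 and -0.70 ± 0.12) and 0 of 15 genes rose. The brighter read 10.76 and 10.67 in low and 10.12 and 9.91 in high switching subclones, and neither call held when an array was left out (adjusted p from 0.0502 to 0.191). On subtraction of its neighbours' median, the brighter was at -0.53 (adjusted p = 0.0531), and the other kept its call at -0.78 (0.0153). Pdk1, its inhibitory kinase among the members, also read lower (-0.58) without passing. Pdk3 (0.64) and Pdhb (0.44) of this list read higher without overlap and did not pass either. By the brightest probe set, 10 of the 15 genes of this list had differences above 0 and 5 below.

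Of 26 further hypoxia-inducible genes, 1 rose and 3 fell. By the brightest probe set 1 rose and 2 fell, beside 372 and 505 of all 18193 genes. Nfil3, a transcription factor, read 7.17 and 7.26 in low and 8.84 and 8.28 in high switching subclones (1.34 ± 0.19), a call that ended without L25 (adjusted p = 0.132) or L27 (0.0905). Ppfia4, which encodes liprin-alpha-4, fell on all 3 probe sets (-1.87, -1.43 and -0.93), and the call of the first, at 8.16 and 7.57 against 5.96 and 6.02, held without any array. The second ended without L25 (adjusted p = 0.0752) or H23 (0.0545), and the third without any 1 array (0.0608 to 0.134). Tfrc, the transferrin receptor for iron uptake, fell on 2 of 3 probe sets (-0.71 and -0.73) and Nampt, an enzyme of NAD synthesis, on 1 of 3 (-0.62). The Tfrc and Nampt calls ended when any array was left out (adjusted p from 0.0803 to 0.165) and on subtraction of their neighbours' median (-0.39, -0.41 and -0.23). With the hybridization control level as a block, which pairs L25 with H27 and L27 with H23, 12 of the 13 calls ended (Fbp2 at adjusted p = 0.05007), and the second Ppfia4 probe set kept its call (0.0488).

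No call was made among 6 pentose phosphate genes, 9 glycogen genes or 17 parts of the oxygen-sensing machinery, of which 2, 2 and 5 had an unadjusted p under 0.05 by limma, beside 22.9% of all genes. Among their probe sets with a mean of at least 7, the largest absolute differences were in Rpia (0.38) and Rpe (-0.34) of the pentose phosphate route, Pgm1 (-0.51) and Gyg (0.41) of glycogen metabolism, and Arnt (0.66) and Siah2 (0.56) of oxygen sensing. Arnt is the constant partner of HIF-1 alpha, and Siah2 a ubiquitin ligase that degrades prolyl hydroxylases. The Arnt value came from a dimmer probe set, and the brightest gave 0.44. With the neighbours' median subtracted, Rpia was at 0.13, Rpe at -0.14, Pgm1 at -0.26 and Gyg at -0.11. Siah2 was then at 0.11 and Arnt at 0.31, or 0.09 on its brightest probe set.

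**Figure D5:**
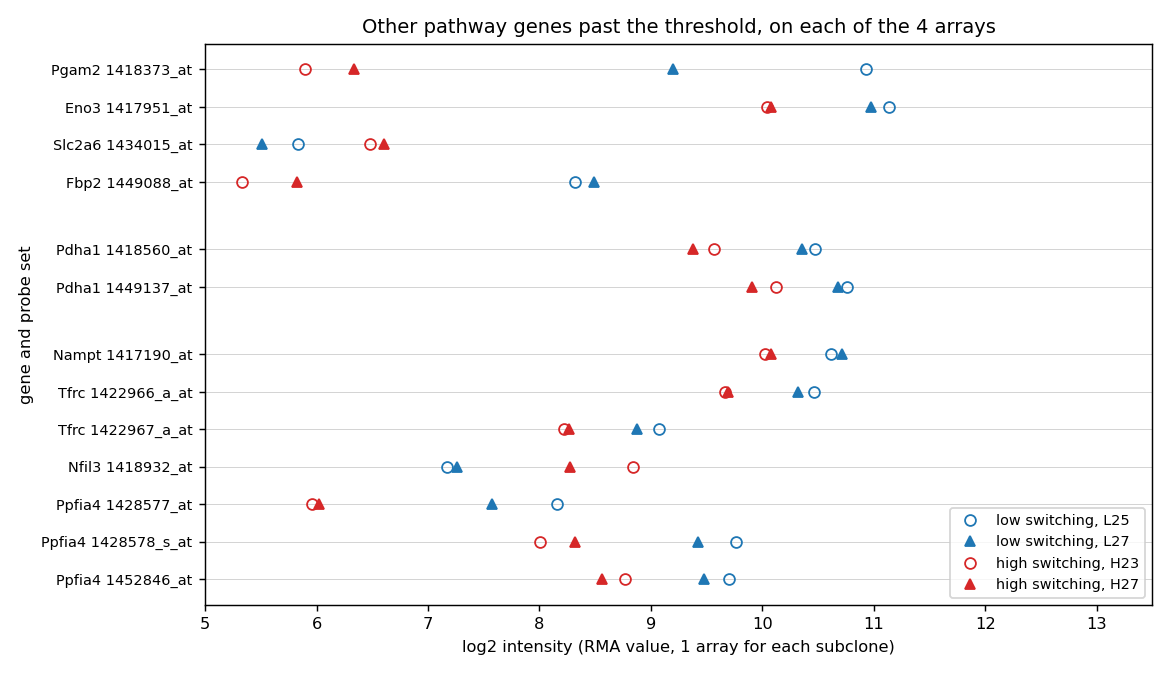
Log2 intensity (horizontal axis) on the 4 arrays for the 13 probe sets of other pathway genes that passed an adjusted p of 0.05 (rows). In each row both low switching arrays (blue) lie on 1 side of both high switching arrays (red); Slc2a6 and Nfil3 are higher, and the other 11 probe sets lower, in high switching subclones.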

How the data were processed

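Total RNA of 4 hybridoma subclones was hybridized to 1 Affymetrix array each. The authors deposited linear intensity values made with RMA, per the submitters' processing notes, a method that corrects background, quantile-normalizes and summarizes probes. Here they were taken to log2. The 64 control probe sets were left out of tests, and limma (3.58.1, R 4.3.3) fitted high minus low switching over 45037 probe sets with moderated variance and Benjamini-Hochberg adjustment, threshold 0.05. The moderated test had 6.10 degrees of freedom. The smallest exact permutation p for 2 against 2 is 0.333, so none is given. With 4 arrays, their number limits the precision.

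Of the probe sets, 34945 named 1 gene, 932 several and 9160 none. A gene was represented by its brightest probe set. Genes named in the text were all members, the genes of other pathway lists with a call, and, in a list without calls, the 2 with the largest absolute difference among probe sets with a mean of at least 7. The members and lists were chosen with earlier results of these data known. Gene order and promoters came from RefSeq tables of GRCm38.p6, with Slc2a3 and Ndrg1 not matched. Data were simulated for this comparison over the same probe sets. In each of 10 draws, 200 probe sets with a mean of at least 7 were changed. There limma recovered 0.2% of changes of 0.5, 40% of 1, 95.2% of 2 and 100% of 4 (log2). Of the calls in a draw, 3.56% on average were false. The fit of the real arrays called 1618 probe sets, which makes its adjusted threshold less strict. The simulated shares therefore do not carry over to it. Alternatives were another variance model, filters on dim probe sets, other normalizations, a hybridization control block, subtraction of neighbouring genes and leaving out each array.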

Additional observations from a re-analysis of the deposited data

How the results depend on the processing

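The count of called member probe sets, 0 of 61, became 1 with an intensity trend and robust estimation, with quantile normalization again, with cyclic loess and with median centring, and 2 with probe sets under a mean of 6 or of 7 left out. It was 0 to 1 with an array left out. The calls over all probe sets (674 higher and 944 lower) became 58 and 94 with the hybridization control block, and 112 to 253 and 196 to 329 with an array left out. Member probe sets without overlap, 27 of 61, numbered 17 of 30 without probe sets that match several transcripts, and 39 to 50 with an array left out, since fewer arrays overlap less. The members' median ran from -0.13 to 0.03 with an array left out, above 0 without H23. The 15 members higher in both L27 and H27 numbered 10 without probe sets that match several transcripts and 21 with neighbouring genes subtracted (a count added after seeing the data). With neighbouring genes subtracted, the sign turned for 10 of 28 members. Of these, 6 stayed within 1 SE of 0 on both sides, and the others were Pfkp (0.26), Aldoa (0.10), Egln1 (-0.016) and Hif1a (-0.04). With an array left out, the sign turns not within 1 SE of 0 in both fits were those of Bnip3 (-0.23 without H27 to 1.19 without H23), Ndrg1 (-0.24 without L25 to 0.25 without L27) and Aldoa (0.0007 without H23 to -0.44 without H27). The cause was not tested. Over 43 member and other probe sets, 28 of 579 comparisons changed sign, 21 of them within 1 SE of 0. No paired analysis was possible because the labels carry no replicate numbers, and the numbers used here only name the arrays. The hybridization control block groups arrays by a measured level, not by origin. Signal near the median probe set limits Car9 and Eno2.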
